A study of Mus musculus with 6 samples.

Results

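The 10 genes described here code for enzymes that build the precursors of DNA and RNA, and were measured in E14 mouse embryonic stem cells, 24 h after a *Son* siRNA or a control siRNA. The genes are *Ppat*, *Gart*, *Pfas*, *Paics*, *Adsl* and *Atic* of purine synthesis, *Cad* and *Tyms* of pyrimidine synthesis, and *Tk1* and *Rrm1*, which supply deoxynucleotides. They were taken by name, 10 of 12134 genes with an intron in the total RNA tables, and had 112 of the 68322 introns listed in every total RNA library. The names were selected on measured values of this same contrast, the splicing efficiency and spliced reads of control and knockdown libraries, which were known when the genes were proposed. The values of the 10 genes are therefore given as a description: their calls are counted beside the share of all genes or introns called, and no p-value of a member is printed.

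All cells were of the E14 line, of 129/Ola background, and were grown in serum with leukaemia inhibitory factor and transfected with Lipofectamine 24 h after seeding. Total RNA, depleted of ribosomal RNA, was sequenced from 2 samples with the control siRNA and 2 with the *Son* siRNA, and cDNA of 1 sample of each treatment was read on a Nanopore flow cell. *Son* codes for a large protein of nuclear speckles that takes part in splicing. Nothing in the labels says that the replicates came from separate cultures, so the spread between them may be technical. In bulk RNA, fewer cells of a type and less RNA per cell cannot be told apart.

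Purine rings are assembled on a ribose phosphate in a fixed order of steps, many of them catalysed by enzymes with several active sites, and the product is inosine monophosphate. The pyrimidine ring is made first and then joined to the ribose, and thymidylate is formed from deoxyuridylate with a folate-bound carbon or from thymidine by salvage. Embryonic stem cells divide fast and spend much of the cycle in S phase, when these supplies are used.

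Splicing was read from reads at the 2 junctions of each intron. A split read has the intron removed, an unsplit read runs across the exon border into the intron, and splicing efficiency is the fraction of split reads, from 0 to 1. Each change is given as a log2 odds ratio of unsplit to split reads, knockdown over control, so that a value above 0 means less efficient splicing. An intron or gene is called where the edgeR quasi-likelihood test over all introns or genes gave a Benjamini-Hochberg adjusted p under 0.05. Spliced RNA of a gene was counted as split reads at its 5′ junctions, scaled to all such reads in the library (CPM).

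The 4 libraries had 10556187 to 16012286 split reads at 5′ junctions, and the median intron of the 10 genes had 666.5 reads per library. *Son* itself had 273 and 306 CPM in the control and 92.1 and 100.5 CPM in the knockdown libraries (log2 fold change -1.61, SE 0.087, edgeR adjusted p = 3.72e-10). Mean splicing efficiency over all listed introns was 0.888 and 0.885 in the control and 0.876 and 0.867 in the knockdown libraries. Of 12 embryonic stem cell markers, 11 had reads, with a summed level of 4500 to 4526 CPM in control and 4128 to 4466 CPM in knockdown libraries, and *Sox2*, whose gene has no intron, cannot be seen in these tables. The median log2 fold change of the 11 was -0.11, beside 0.01 for all genes. *Fgf4* was the 1 called with fewer spliced reads (log2 fold change -0.39, edgeR adjusted p = 0.0301), where 6.76% of all genes were, and none had more. *Pou5f1* was the 1 called less efficiently spliced (log2 odds ratio 0.79, edgeR adjusted p = 0.00259), where 6.98% were. Of the markers of fibroblasts, 1 of 6 had reads, of primitive endoderm 2 of 6, of neural cells 2 of 4 and of mesoderm 1 of 4. Each of these 4 lists summed to 1.14 to 4.64 CPM in every library, and *Col1a1*, *Col3a1*, *Sox17*, *Gata6* and *Mixl1* had no intron listed in all 4 libraries. Any marker gene without an intron is missing from these tables, as *Sox2* is, so a marker without reads here is not shown to be absent. The part of these values in the results below was not tested.

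The splice junctions that the results turn on lie in *Pfas* and *Tk1*, both on chromosome 11. The lines below join the last 30 coding bases of the exon before an intron to the first 30 of the exon after it, 5′ to 3′ on the coding strand, with the last 3 bases of the first exon and the first base of the next in capitals. These sequences come from GENCODE M21 transcripts (GRCm38). Intron numbers follow the main transcripts ENSMUST00000021282 and ENSMUST00000026661, and intron sequence was not used here. The 5 *Pfas* introns called less efficiently spliced come first, then 3 *Pfas* introns that were not called, then both listed introns of *Tk1*.
Pfas intron 8, called: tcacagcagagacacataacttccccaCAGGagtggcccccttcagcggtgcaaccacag
Pfas intron 13, called: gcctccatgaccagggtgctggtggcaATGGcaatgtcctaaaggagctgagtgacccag
Pfas intron 14, called: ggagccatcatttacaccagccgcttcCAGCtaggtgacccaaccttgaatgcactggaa
Pfas intron 16, called: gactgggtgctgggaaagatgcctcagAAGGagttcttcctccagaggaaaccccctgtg
Pfas intron 18, called: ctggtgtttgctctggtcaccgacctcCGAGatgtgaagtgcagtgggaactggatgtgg
Pfas intron 5, not called: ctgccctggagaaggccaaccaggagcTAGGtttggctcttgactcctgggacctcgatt
Pfas intron 7, not called: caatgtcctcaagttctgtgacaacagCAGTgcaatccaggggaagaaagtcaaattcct
Pfas intron 17, not called: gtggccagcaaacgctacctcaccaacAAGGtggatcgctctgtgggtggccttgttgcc
Tk1 intron 1, not called: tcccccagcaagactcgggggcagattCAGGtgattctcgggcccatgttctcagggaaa
Tk1 intron 6, not called: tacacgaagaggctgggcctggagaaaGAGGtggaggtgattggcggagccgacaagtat

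*Tk1* and *Pfas* were the genes of the 10 called with fewer spliced reads after the *Son* siRNA. *Tk1* was lower by a log2 fold change of -1.85 and *Pfas* by -0.41, while the other 8 lay between -0.11 and 0.16. Both were called, 2 of 10, where 6.76% of the 9474 genes tested were called with fewer spliced reads. None of the 10 was called with more, where 1.96% of all genes were. At an unadjusted p under 0.05 the edgeR test gave 1 gene with more reads, *Ppat*, and DESeq2 called the same number with fewer, 2, and none with more. The median of the 10 was -0.05, beside 0.01 for all genes.

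**Figure D1:**
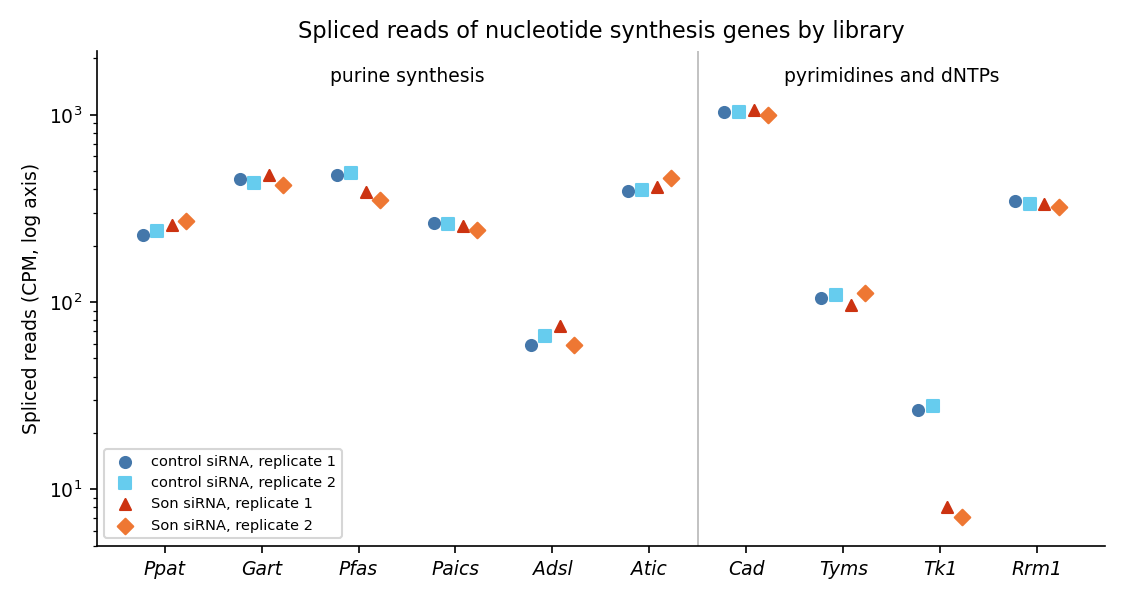
Spliced reads of each gene in CPM on a log axis, 1 point per total RNA library, with purine synthesis on the left and pyrimidine and deoxynucleotide supply on the right. Tk1 stands at 26.5 and 27.9 CPM in the controls and at 8.08 and 7.10 CPM after the Son siRNA, and no other gene of the 10 shows a gap of that size.

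*Tk1* codes for cytosolic thymidine kinase, which phosphorylates thymidine in the salvage route and is made mainly in S phase. Its spliced reads were 26.5 and 27.9 CPM in the control libraries, from 425 and 297 reads, and 8.08 and 7.10 CPM in the knockdown libraries, from 121 and 75 reads. The groups were far apart: the level fell by 72.3% (log2 fold change -1.85, SE 0.172). The value lay between -2.05 and -1.77 under every alternative setting run, and *Tk1* was called under each. Only 2 of the 6 introns of its main transcript were listed in all 4 libraries.

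Both of those introns were less efficiently spliced in each knockdown library than in each control. The same order was found in 24.3% of all introns tested and in 42.2% of those up to 200 nt. *Tk1* intron 1, of 81 nt at chr11:117716459-117716539 (GRCm39), had efficiencies of 0.975 and 0.993 in the controls against 0.954 and 0.935 in the knockdown. *Tk1* intron 6, of 307 nt at chr11:117706966-117707272, had 0.974 and 0.954 against 0.947 and 0.903. The log2 odds ratios were 1.74 (SE 0.88) and 1.17 (SE 0.63), and neither intron was called, with few unsplit reads in either. Summed over both, *Tk1* had 22 and 17 unsplit reads in the controls against 12 and 13 in the knockdown, beside 843 and 584 split reads in the controls against 228 and 136 in the knockdown. The count of unsplit reads was thus lower as well, and by less than that of split reads. *Afmid* and *Gm20708* overlap *Tk1* on the opposite strand, and since the use of strand in counting is not stated, unsplit reads of these genes cannot be told apart from those of *Tk1*.

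*Amdhd2*, *Pgghg*, *Ppm1m*, *Galk1* and *Susd2* had the pattern over the 4 libraries nearest to that of *Tk1*. Likeness was the distance in log2 CPM centred on each gene's mean, over 7387 genes with at least 100 spliced reads on average, and was 0.15 to 0.34 for these 5. *Amdhd2* stood at 29.9 and 30.4 CPM in control and 9.88 and 8.72 CPM in knockdown libraries. *Galk1*, the galactokinase gene, stood at 70.9 and 65.7 CPM in control and 26.2 and 20.3 CPM in knockdown libraries. The log2 fold changes of the 5 ran from -1.53 to -1.90. With 2 libraries a group, likeness mostly means a fall of the same size.

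*Pfas* codes for the amidotransferase of the fourth step of purine synthesis, which adds a nitrogen from glutamine. Its spliced reads were 476 and 489 CPM in the controls against 387 and 351 CPM in the knockdown, with no overlap (log2 fold change -0.41, SE 0.073). Its splicing efficiency over 20 introns was 0.966 and 0.956 in the controls against 0.914 and 0.891 in the knockdown. The log2 odds ratio was 1.41 (SE 0.22), and *Pfas* was the 1 gene of the 10 called less efficiently spliced, where 6.98% of 9370 genes were called. No gene of the 10 was called more efficiently spliced, where 0.128% were, and at an unadjusted p under 0.05 the test gave none in that direction and *Tk1* besides *Pfas* in the other.

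Over the 112 introns, 5 were called less efficiently spliced and all 5 lie in *Pfas*. Of all 63309 introns tested, 1.71% were called lower and 0.0442% higher. None of the 112 was called higher by edgeR or DESeq2, and 3 had an unadjusted edgeR p under 0.05 in that direction. In 30 introns both knockdown libraries lay below both controls, where 24.3% of all introns did so, in 13 they lay above, where 13.1% did so, and in 69 the groups overlapped. The median log2 odds ratio was 0.17, beside 0.12 for all introns. When split and unsplit reads were scaled separately, the median of all introns was -0.04.

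*Pfas* intron 14 had the largest log2 odds ratio, 3.26 (SE 0.38). This intron of 107 nt, at chr11:68884285-68884391 (GRCm39), was spliced at 0.981 and 0.970 in the controls and at 0.821 and 0.795 in the knockdown. *Pfas* intron 18, of 143 nt at chr11:68882863-68883005, was the least efficiently spliced in the controls already, at 0.641 and 0.734, and stood at 0.337 and 0.236 in the knockdown, so that most reads there were unsplit. *Pfas* intron 13, of 180 nt at chr11:68884454-68884633, went from 0.940 and 0.936 in the controls to 0.788 and 0.771. These 3 had log2 odds ratios of 2.09 to 3.26, and none had overlapping groups.

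*Pfas* intron 16, of 129 nt at chr11:68883613-68883741, had 0.953 and 0.937 in the controls against 0.834 and 0.798 in the knockdown. *Pfas* intron 8, of 107 nt at chr11:68890964-68891070, had 0.956 and 0.938 against 0.880 and 0.814, with the smallest log2 odds ratio of the 5, 1.67. Summed over the 5 introns, the controls held 449 unsplit and 7592 split reads, and the knockdown libraries 1289 unsplit and 4820 split reads. These 5 were called on the odds of unsplit to split reads, so the direction was set by the choice. Over all 20 *Pfas* introns, unsplit reads were 531 and 482 in the controls against 1090 and 891 in the knockdown. Split reads were 15174 and 10397 in the controls against 11518 and 7319. Unsplit *Pfas* reads were thus more numerous in the knockdown. Those of *Tk1*, few and not surely its own, were fewer. *Pfas* introns 8, 13, 14, 16 and 18 were not all called under every setting: without control replicate 1, introns 13, 14 and 18 were called, and limma on log odds called none, nor any of the 63309 introns tested.

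**Figure D2:**
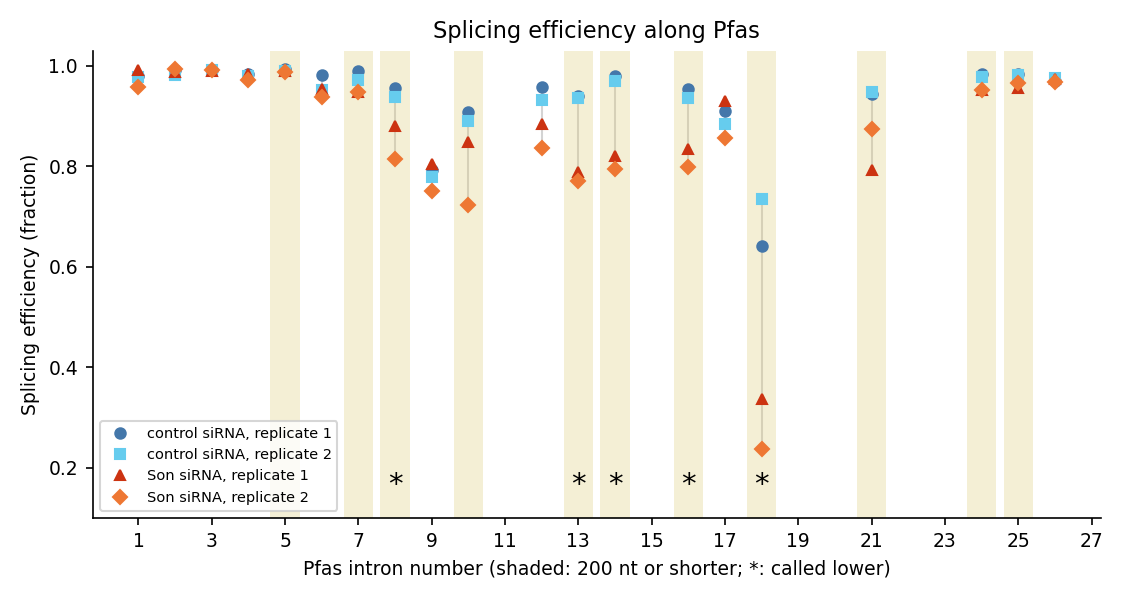
Splicing efficiency, as a fraction from 0 to 1, of the 20 Pfas introns listed in all 4 libraries, by intron number, with 1 point per library. Introns of 200 nt or shorter are shaded and the 5 called introns carry a star. Intron 18 stands lowest, at 0.641 and 0.734 in the controls against 0.337 and 0.236 in the knockdown, and intron 17 beside it overlaps.

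The *Pfas* introns differed by length. All 11 of 200 nt or shorter were less efficiently spliced in both knockdown libraries than in both controls, where 42.2% of the 9780 tested introns up to that length were, and 5 of these 11 were called, where 7.42% were. Of the 9 longer ones, 1 was lower without overlap, intron 12 of 293 nt, where 24.3% of all introns tested were. None of the 9 was called, where 1.71% of all introns tested were called lower. Shares over introns above 200 nt alone were not counted, and the difference by length was not tested. Intron 17, of 244 nt, lies between the called introns 16 and 18 and had 0.909 and 0.884 in the controls against 0.931 and 0.856 in the knockdown, which overlap. The first 4 introns, of 436 to 4530 nt, were between 0.958 and 0.994 in every library. Of the introns not called, intron 21, of 178 nt, had the largest log2 odds ratio, 1.77, with 0.944 and 0.947 in the controls against 0.792 and 0.874 in the knockdown.

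Split reads along *Pfas* were uneven too. At intron 2, the one with most split reads, they were 44.3 and 40.3 CPM in the controls against 37.9 and 41.2 CPM in the knockdown, which overlap. At intron 14 they were 44.4 and 42.5 CPM in the controls against 25.4 and 24.7 CPM in the knockdown. The median log2 ratio of split reads was -0.55 over the 11 introns up to 200 nt and -0.28 over the 9 longer ones. In 15 of the 20 both knockdown libraries lay below both controls. These are the reads summed in the lower total of *Pfas*, and the same count over all introns was not made. Counted at the best covered intron of each gene alone, *Pfas* had a log2 fold change of -0.13 and was not called, so the lower count of spliced *Pfas* reads depends on which introns are counted.

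The exon ends beside the called *Pfas* introns, printed above, varied. The last 2 bases of the upstream exon were AG in 3 of the 5 called introns and in 12 of the 15 others, beside 57.6% of all introns tested. Introns 13 and 18 end their upstream exon in ATG and CGA. The GC content of up to 100 exon bases on each side was 57.5% at the median of the called and 57.0% of the other *Pfas* introns, beside 50.5% for all introns tested and 56.5% for those called lower. *Mir3062* overlaps a *Pfas* exon in the annotation, and the small nuclear RNA gene *Gm25819* lies in intron 11, which was not listed.

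*Cad* shares short introns and GC-rich exons with *Pfas*. It codes for the enzyme of the first 3 steps of pyrimidine synthesis and had 1031 and 1033 CPM in the controls against 1067 and 995 CPM in the knockdown (log2 fold change -0.02, SE 0.065). None of its 35 introns was called by edgeR or DESeq2, and 3 had an unadjusted edgeR p under 0.05, all lower. Of its 20 introns up to 200 nt, 5 were lower without overlap, where 42.2% of all tested introns up to that length were. The median change in efficiency of those 20 was -0.0052, beside -0.11 for the 11 such introns of *Pfas*, and the median GC content of the exon ends was 58.0% in *Cad* and 57.2% in *Pfas*. *Cad* intron 41, of 88 nt, had the largest log2 odds ratio of the gene, 1.55, at 0.988 and 0.975 in the controls against 0.957 and 0.938 in the knockdown. *Cad* intron 22, of 285 nt, had the largest fall in mean efficiency, 0.954 and 0.898 against 0.932 and 0.800, and its groups overlap. The difference between *Pfas* and *Cad* itself was not tested.

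**Figure D3:**
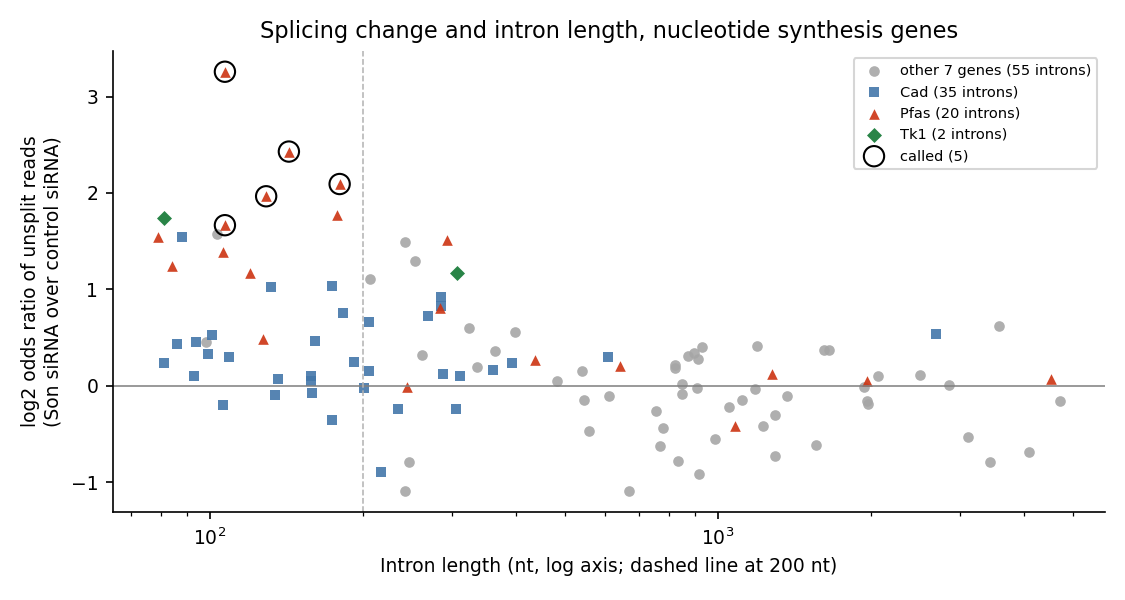
Log2 odds ratio of unsplit to split reads, Son siRNA over control siRNA, against intron length in nt on a log axis, for the 112 introns of the 10 genes. The 5 called introns, ringed, are Pfas introns of 107 to 180 nt, and the 20 Cad introns up to 200 nt, left of the dashed line, have a median of 0.27 beside 1.67 for the 11 of Pfas.

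The first enzymes of the purine route differed less between the groups. *Ppat* codes for the amidotransferase of the first, committed step. Its spliced reads were 227 and 240 CPM in the controls against 259 and 272 CPM in the knockdown, higher without overlap and not called (log2 fold change 0.16, SE 0.076). Without knockdown replicate 1, the log2 fold changes of *Ppat* and *Atic* were 0.20 and 0.21. In 4 of the 8 *Ppat* introns both knockdown libraries were above both controls, where 13.1% of all introns were, such as intron 5, of 668 nt, with 0.949 and 0.954 against 0.980 and 0.972. Its intron with the largest fall, intron 4 of 98 nt, had 0.964 and 0.971 in the controls against 0.962 and 0.948 in the knockdown.

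*Gart* codes for a protein with 3 activities, of early steps of the route, and neighbours *Son* in the genome. Its spliced reads were 455 and 430 CPM in the controls against 476 and 423 CPM in the knockdown, which overlap (log2 fold change 0.00, SE 0.075). Of 13 introns, 4 were lower without overlap, where 24.3% of all introns were. None was called, where 1.71% of all introns were called lower, and 2 had an unadjusted edgeR p under 0.05. *Gart* intron 3, of 207 nt, had 0.968 and 0.953 in the controls against 0.936 and 0.899 in the knockdown (log2 odds ratio 1.10, SE 0.36). The largest fall was in a first intron of 3580 nt at chr16:91440035-91443614, from 0.899 and 0.899 to 0.869 and 0.831. The antisense genes *Gm15964* and *2310040G07Rik* overlap *Gart* and *Ppat*.

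*Paics* codes for the enzyme of the sixth and seventh steps. Its 5′ end lies beside that of *Ppat* on the opposite strand, and the gene models overlap there. Its spliced reads were 265 and 263 CPM in the controls against 254 and 244 CPM in the knockdown, lower without overlap and not called (log2 fold change -0.11, SE 0.075). *Paics* intron 4, of 103 nt at chr5:77109137-77109239, was its 1 short intron, with 0.961 and 0.935 in the controls against 0.891 and 0.824 in the knockdown (log2 odds ratio 1.58, SE 0.55, not called). *Paics* intron 8, of 242 nt, stood the other way, at 0.940 and 0.940 against 0.970 and 0.972.

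*Adsl*, the lyase of the eighth step that also acts after inosine monophosphate, had 59.1 and 66.3 CPM in the controls against 74.4 and 58.6 CPM in the knockdown, which overlap. The pseudogene *Gm6612* overlaps it on the same strand. Its log2 fold change was 0.07 (SE 0.12), and its intron with the largest fall, intron 7 of 873 nt, had 0.927 and 0.906 against 0.917 and 0.877, which overlap. *Atic*, the enzyme of the last steps, had 390 and 395 CPM in the controls against 413 and 459 CPM in the knockdown, higher without overlap (log2 fold change 0.13, SE 0.073). *Atic* intron 6, of 253 nt, was lower without overlap, at 0.926 and 0.905 against 0.808 and 0.833. Of its introns with 50 or more reads in each library, intron 10 had the largest fall and stayed between 0.988 and 0.994 in the 4 libraries.

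*Tyms* and *Rrm1* act in deoxynucleotide supply. *Tyms* codes for thymidylate synthase and had 106 and 109 CPM in the controls against 96.3 and 112 CPM in the knockdown (log2 fold change -0.07, SE 0.096). Of its 5 listed introns, 2 belong to the main transcript. Over the 5, 1 was lower and 1 higher without overlap, and the largest fall was in intron 1, from 0.850 and 0.871 to 0.800 and 0.851, which overlap. *Rrm1* codes for the large subunit of ribonucleotide reductase and had 348 and 334 CPM in the controls against 336 and 321 CPM in the knockdown (log2 fold change -0.08, SE 0.073). None of its 9 introns was lower without overlap and 3 were higher, such as intron 10, of 246 nt, with 0.962 and 0.938 against 0.972 and 0.971. *Gm45399* overlaps *Rrm1* on the same strand. Its intron with the largest fall, intron 6, was between 0.972 and 0.981 in every library. Leaving out *Pfas*, 18 of 92 introns were lower without overlap, where 24.3% of all introns were, and 13 were higher, where 13.1% were, with a median log2 odds ratio of 0.11.

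Counted per listed intron at the 5′ junction, an approximate scale for setting genes side by side, *Paics* was highest in the controls at 52.8 ± 0.36 CPM (SD, n = 2). It was followed by *Atic* at 43.6 ± 0.36, *Rrm1* at 37.9 ± 1.1, *Gart* at 34.1 ± 1.4 and *Cad* at 29.5 ± 0.033 CPM per intron. *Ppat* had 29.2 ± 1.1, *Pfas* 24.1 ± 0.46, *Tyms* 21.5 ± 0.45, *Tk1* 13.6 ± 0.48 and *Adsl* 10.5 ± 0.84 CPM per intron. *Cad* and *Ppat* were the 1 pair of neighbours in this order whose control libraries overlap. *Tk1* stood at 3.80 ± 0.34 CPM per intron after the *Son* siRNA. The order depends on which introns are listed: a *Tyms* intron outside the main transcript had 5 split reads at its 5′ junction and 305 at its 3′ junction in control replicate 1. In the Nanopore control library, where a read is a transcript, *Paics* was also highest at 274 CPM and *Tyms* was next at 153 CPM. *Adsl* stood there at 117 CPM, above *Tk1* at 63.6 CPM, and *Pfas* was lowest at 24.7 CPM.

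The rest of the pathway was read from 4 lists of enzymes outside the 10 genes. Of 40 names, 33 could be tested, 3 were called with fewer spliced reads, where 6.76% of all genes were, and none with more, where 1.96% were. At an unadjusted edgeR p under 0.05 there were 6, and DESeq2 called 3, all fewer. The 33 had a median log2 fold change of 0.01, as for all genes. The called genes were *Impdh1*, *Dhodh* and *Shmt2*, and all 3 were also called less efficiently spliced, a call lost at 8 of 12 other settings for *Impdh1* (largest adjusted p 0.749), 7 for *Dhodh* (0.526) and 2 for *Shmt2* (0.138, limma).

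*Shmt2*, the mitochondrial enzyme that moves a carbon from serine to folate, had a mean of 310 ± 21 CPM in control and 173 ± 16 CPM in knockdown libraries (SD, n = 2). Its log2 fold change was -0.86 (SE 0.085, edgeR adjusted p = 6.45e-07), and its splicing had a log2 odds ratio of 1.31 (edgeR adjusted p = 6.51e-06). *Dhodh*, which oxidises dihydroorotate in the pyrimidine route after *Cad*, had 45.8 ± 4.3 CPM in control and 25.8 ± 2.5 CPM in knockdown libraries (log2 fold change -0.84, SE 0.13, edgeR adjusted p = 0.000161). At every setting run, the edgeR or DESeq2 adjusted p of spliced reads was at most 0.0228 for *Dhodh* and 0.00774 for *Shmt2*. Both enzymes are mitochondrial.

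*Impdh1*, an inosine monophosphate dehydrogenase of the branch to guanine nucleotides, had 40.2 ± 3.6 CPM in control and 25.7 ± 1.0 CPM in knockdown libraries. Its log2 fold change was -0.66 (SE 0.13, edgeR adjusted p = 0.00179), and it was not called without control replicate 2 (edgeR adjusted p = 0.0739) or with the best covered intron alone (-0.35, edgeR adjusted p = 0.567). By list, 1 of 11 purine, 1 of 7 pyrimidine and 1 of 7 one-carbon genes were called. Of the 8 deoxynucleotide genes, among them *Rrm2*, *Dut* and *Tk2*, none was called by edgeR or DESeq2, with 1 at an unadjusted edgeR p under 0.05 and a range of log2 fold changes of -0.16 to 0.35.

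**Figure D4:**
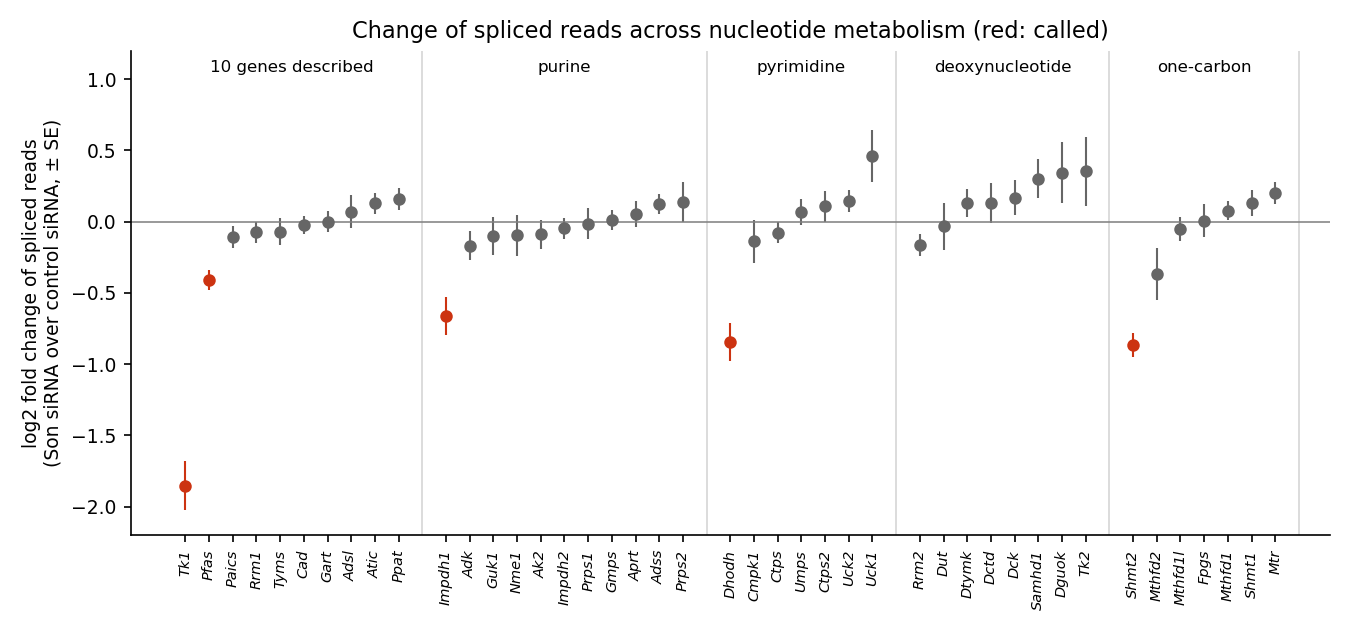
Log2 fold change of spliced reads, Son siRNA over control siRNA, with its SE as the bar, for the 10 genes described and the 33 tested genes of the purine, pyrimidine, deoxynucleotide and one-carbon lists. Red points were called with the edgeR test over all genes: Tk1 at -1.85, Pfas at -0.41, Impdh1 at -0.66, Dhodh at -0.84 and Shmt2 at -0.86.

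Genes of S phase were read beside *Tk1*, which is itself high in that phase. Of 18, 3 were called with fewer spliced reads by edgeR, where 6.76% of all genes were, and none with more, where 1.96% were. The same number, 3, had an unadjusted edgeR p under 0.05. DESeq2 called 2, none with more. The 3 were *Gins2* at a log2 fold change of -0.57, the regulator *E2f1* at -0.35 and the polymerase gene *Pole* at -0.34, with edgeR adjusted p of 0.00718, 0.0391 and 0.00209. Of 11 other settings, the call was lost at 5 for *E2f1*, 3 for *Gins2* and 3 for *Pole*. Each of the 3 was no longer called without control replicate 1 or with the best covered intron alone, *E2f1* and *Pole* also not without control replicate 2, and *E2f1* also not with DESeq2. *Gins2* stood at -0.25 with introns listed in any library (edgeR adjusted p = 0.702) and *Pole* at -0.09 with the best covered intron alone (edgeR adjusted p = 0.846). The 18 summed to 7081 and 7128 CPM in control and 7021 and 6789 CPM in knockdown libraries, with a median log2 fold change of -0.09. The part of the cell cycle in the lower *Tk1* level was not tested.

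The Nanopore control library held 3080426 reads and the knockdown library 1874851, 1 sample each, so differences there have no replicate check and intervals cover counting error only. The labels give both samples the same knockdown sample as starting material, and *Son* had 217 reads in the library labelled control and 37 in the one labelled knockdown, or 70.4 CPM (95% Wilson interval 61.7 to 80.5) and 19.7 CPM (14.3 to 27.2). *Tk1* had 196 reads in the control and 49 in the knockdown, or 63.6 CPM (95% Wilson interval 55.3 to 73.2) and 26.1 CPM (19.8 to 34.5). Its log2 ratio was -1.27, and it was the 1 gene of the 10 at least 2-fold lower, where 4.16% of 9618 genes were. None was at least 2-fold higher, where 2.2% were. The other 9 had log2 ratios from -0.28 for *Atic* to 0.24 for *Ppat*. *Pfas* had 76 and 43 reads, or 24.7 CPM (19.7 to 30.9) and 22.9 CPM (17.0 to 30.9), a difference not detectable at this depth.

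*Gart* differed between the libraries in its makeup. Its total was 135 CPM (123 to 149) in the control and 144 CPM (128 to 162) in the knockdown library. A shorter coding model of 1865 nt, ENSMUST00000120450, held 90 of 417 *Gart* reads in the control and 29 of 270 in the knockdown. That was 21.6% (95% Wilson interval 17.9 to 25.8) against 10.7% (7.58 to 15.0), and the intervals do not overlap. The full model of 3518 nt held 50.8% (46.1 to 55.6) and 61.1% (55.2 to 66.7). How often such intervals lie apart over all transcripts was not counted. Coding models of *Adsl* (1595 nt), *Gart* (1852 nt) and *Paics* (1862 nt) also held smaller shares in the knockdown library, with overlapping intervals. For *Adsl* it was 12.2% against 7.32%, while the *Tk1* coding model of 1440 nt held 90.8% against 93.9%. The part of read length in these shares was not tested.

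Models annotated for nonsense-mediated decay held a larger share of the reads of the 10 genes in the knockdown library, 111 of 1935 or 5.74% (4.79 to 6.86), than in the control, 113 of 3287 or 3.44% (2.87 to 4.12). Over all annotated transcripts the shares were 1.48% and 1.42%. The reads came mostly from *Ppat*, *Tyms* and *Gart*. The decay model of *Ppat* held 11.2% (7.91 to 15.6) of its reads in the control and 18.8% (13.9 to 25.0) in the knockdown, that of *Tyms* 7.01% (5.03 to 9.68) and 12.2% (8.85 to 16.5), and that of *Gart* 7.67% (5.49 to 10.6) and 12.2% (8.84 to 16.7). In each of these 3 the intervals overlap.

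Retained-intron models showed less of a difference. With decay and retained-intron models together, the share was 8.31% (7.41 to 9.30) in the control and 11.1% (9.79 to 12.6) in the knockdown library, beside 7.66% and 8.12% over all annotated transcripts. Retained-intron models alone held 4.87% and 5.37%. *Rrm1* held more of these reads than any other of the 10, 78 of 160 in the control and 59 of 104 in the knockdown. On 1 retained-intron model it had 20.2% (16.4 to 24.5) and 24.2% (19.2 to 30.0) of its reads. In *Pfas* such models held 21 of 76 reads in the control and 15 of 43 in the knockdown, 27.6% (18.8 to 38.6) and 34.9% (22.4 to 49.8), which overlap. In *Tk1* they held 18 of 196 and 3 of 49 reads, 9.18% and 6.12%, and the Wilson intervals overlap too.

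**Figure D5:**
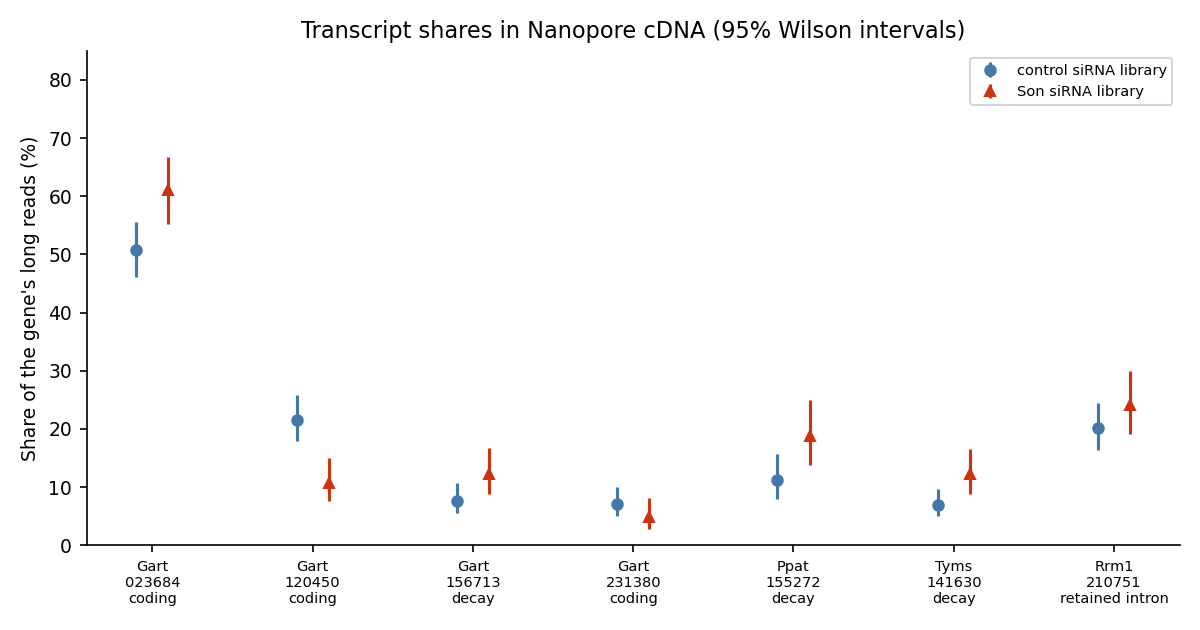
Share of a gene's long reads, in percent with 95% Wilson intervals, held by the Gart models and by the decay and retained-intron models of Ppat, Tyms and Rrm1, in the control and the Son siRNA library. Models are named by the last 6 digits of their identifier. The short coding model of Gart stands at 21.6% in the control and 10.7% in the knockdown library.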

How the data were processed

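The total RNA tables deposited by the authors, made with SPLICE-q per the labels, give for each intron counts of reads at its 5′ and 3′ junction, split or unsplit, and a fraction, the splicing efficiency. Checked on the tables, the deposited fraction equals split over all reads at both junctions, and each listed junction had at least 10 reads. The Nanopore tables, per the labels, give read counts by transcript. The submitters' processing notes name GRCm39, SAMtools and minimap2. Strand use and settings are not given in the sources used here.

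The 10 genes, all lists and the 200 nt limit were chosen with earlier results of these data known. Repeated introns were reduced to 1 entry, and names came from GENCODE M21 by identifier. In edgeR 4.0.16 (R 4.3.3), split and unsplit reads of introns listed in all 4 libraries, with at least 10 of each in total, were fitted with 4 library terms, 1 for being unsplit and 1 for being unsplit in the knockdown. Reads summed per gene used introns of 1 gene only. Spliced reads were fitted with TMM scaling. DESeq2 1.42.0 and limma 3.58.1 were alternatives. The models were tested on simulated data. Named were all 10 genes, each called intron and each gene's largest fall among introns with at least 50 reads per library, up to 4 transcripts per gene with at least 20 long reads, up to 5 called genes per list, and the 5 genes nearest to *Tk1*. Other features named were chosen after their values were seen. Of the lists, 2 genes are not reported here. Long-read log2 ratios used a pseudocount of 0.5 reads. With 2 samples a group, an exact two-sided permutation test cannot go below p = 0.333, so none was used. In the labels, the control and the knockdown long-read sample are both said to start from 1 and the same knockdown sample, so the assays were not paired.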

Additional observations from a re-analysis of the deposited data

How the results depend on the processing

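*Tk1* was called with fewer spliced reads under every setting run, and *Pfas* less efficiently spliced under every one but limma. No value that was called changed sign. Of the counts and shares that lead each comparison, 67 values at other settings stayed within 1.5 times the count or within its interval and 10 did not. The number of introns called less efficiently spliced, 5, was 3 with DESeq2, 0 with limma on log odds, which called 0 of all 63309 introns, 2 at the 5′ junction alone, and 3 to 7 when 1 library was left out (3 without control replicate 1). Genes called less efficiently spliced were 0 with limma in place of 1, where limma called 0 of 9370 genes and gave *Pfas* the same log2 odds ratio, 1.41, and 1 in each fit without 1 library. Genes with fewer spliced reads were 1 in place of 2 with the best covered intron alone, and 2 when any library was left out. Without knockdown replicate 1, *Ppat* and *Atic* stood at log2 fold changes of 0.20 and 0.21. Calls of more spliced reads rose in that fit, among all genes as well as among the 10. The cause of these shifts was not tested. With a replicate block, 8 introns were called, among them all 5, where 1580 of all 63309 introns were called in place of 1084. The block also gave 2 called genes, *Pfas* and *Cad*. The replicate numbers were not taken as pairs, since no label gives them a shared batch. Over genes, deviations of replicate 1 from the group means had a correlation between control and knockdown of 0.0017 in spliced reads and 0.0351 in splicing. A correlation over genes cannot show a shift shared by all genes. The odds of unsplit reads were higher in replicate 2 than in replicate 1 for 70% of 9370 genes in the controls and 72.8% in the knockdown. Without the most abundant transcript of each gene, the rise in decay and retained-intron share was 8.59 percentage points (29.8% to 38.4%) in place of 2.81. The depth of the *Tk1* introns, with 46 reads in 1 library, limits what can be said of its splicing.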

Other observations

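The reads at the ends of *Pfas* intron 14 were also unbalanced in the knockdown, a pattern noticed after the values were seen. In the controls, 1163 split reads left its 5′ junction and 1155 reached its 3′ junction. In the knockdown libraries 641 left the 5′ junction and 484 reached the 3′ junction. The ratio of 3′ to 5′ split reads was 0.993 and 0.993 in the controls against 0.779 and 0.720 in the knockdown, with no overlap. Among introns with at least 100 split reads at each junction in each group and a control ratio between 0.9 and 1.1, a log2 change of this ratio by at least 0.3 was found in 79 of 39225, or 0.201%, and in 1 of 94 in the 10 genes. Where the other reads from that 5′ junction ended is not recorded in these tables. The next largest was *Cad* intron 41, with a ratio of 1.00 over the controls and 0.927 over the knockdown libraries.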
